A study of Mus musculus with 13 samples.

Results

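The genes described here encode 7 transcription factors that set the helper and effector identity of T cells: Tbx21, Gata3, Rora, Runx3, Maf, Prdm1 and Hlx. They were taken by symbol from the array platform's annotation, using probe sets that name exactly 1 symbol, and where a gene had several, the one brightest on average across the 13 arrays was kept. All 7 of the 22180 genes with such a probe set were found. The arrays measured RNA of C57Bl/6 donor CD4+ T cells responding to B6D2F1 host mice, a model of acute graft-versus-host disease. Donor splenocytes carried CFSE, a dye diluted at each division, and on day 3, at 72 h, CD4+ cells with 2 or more divisions were taken from spleen and lymph node with beads and a cell sorter. Donors and hosts were bought at 10 to 12 weeks of age. The vehicle group (4 arrays) was injected on days 0, 1 and 2, the Cl-BBQ group (5 arrays) received 10 mg/kg of Cl-BBQ on the same days, and the TCDD group (4 arrays) received 15 µg/kg of TCDD on day 0. Both compounds bind the aryl hydrocarbon receptor (AhR), which acts as a transcription factor once bound, and the groups differ in dose and schedule as well as in compound. The sorted population can hold cells of several helper states, and in such a bulk measurement fewer cells of a state cannot be told apart from less RNA per cell.

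A naive CD4+ T cell that meets antigen turns on lineage factors that fix which cytokines it will make. T-bet, encoded by Tbx21, directs the Th1 programme of interferon gamma and cytotoxic genes, Runx3 works with T-bet and also silences Il4, and Hlx is a homeobox factor that cooperates with T-bet. GATA3 directs the Th2 programme, and RORalpha, encoded by Rora, takes part in the Th17 programme. c-Maf, encoded by Maf, activates Il10, Il4 and Il21, and Blimp-1, encoded by Prdm1, represses genes of naive and follicular helper cells and supports Il10 expression. Activated AhR pairs with ARNT and binds DNA elements with the core letters GCGTG.

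Promoters are shown for Prdm1 and Runx3, the members that passed the test with both ligands in the results below. Each is the 250 bases before the start of the gene in the RefSeq annotation of GRCm38.p6, 5′ to 3′ on the gene's strand, in lower case, with GCGTG or its reverse complement CACGC in capitals. RefSeq gives 2 starts for Runx3, a distal and a proximal one, and the array value used here does not separate their transcripts.
Prdm1, chr10:44458749-44458998, minus strand: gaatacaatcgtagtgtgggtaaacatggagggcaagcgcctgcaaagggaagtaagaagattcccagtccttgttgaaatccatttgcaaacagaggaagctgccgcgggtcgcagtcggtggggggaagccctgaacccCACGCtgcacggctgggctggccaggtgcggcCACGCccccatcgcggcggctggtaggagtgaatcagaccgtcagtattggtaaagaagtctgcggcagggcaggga
Runx3 distal, chr4:135120395-135120644, plus strand: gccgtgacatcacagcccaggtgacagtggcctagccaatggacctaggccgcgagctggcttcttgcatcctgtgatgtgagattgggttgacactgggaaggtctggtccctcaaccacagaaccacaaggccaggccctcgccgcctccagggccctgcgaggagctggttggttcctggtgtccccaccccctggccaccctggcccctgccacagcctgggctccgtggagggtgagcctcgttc
Runx3 proximal, chr4:135152295-135152544, plus strand: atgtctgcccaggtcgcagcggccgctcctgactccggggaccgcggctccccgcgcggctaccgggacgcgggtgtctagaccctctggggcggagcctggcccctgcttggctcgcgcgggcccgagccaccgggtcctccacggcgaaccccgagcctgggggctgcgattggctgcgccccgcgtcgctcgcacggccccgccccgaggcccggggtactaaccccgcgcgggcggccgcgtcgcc
The Prdm1 window held 2 copies of the core, which begin 109 and 77 bases before the start, and neither Runx3 window held one. At least 1 core was present in 28.2% of the 32851 promoter windows of the same length in the table, and at least 2 in 8.63%. Promoters were listed for 6 of the 7 members, with 7 windows in all, of which 3 held a core. The other matches were 1 in Rora and 1 in Hlx, neither of which passed the test in any comparison below. These matches describe letters in a short window and are not binding sites, and the absence of a match says only that the letters are not in that window.

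Values are log2 expression after RMA, so that 1 unit is a 2-fold difference, and values of different genes are not compared with each other because probe sets differ in brightness. All 7 members exceeded 4.31, the median over the whole data set and here called the floor, on all 13 arrays and were among the 12710 genes tested. Differences were tested with limma over all of these genes, and a gene was called where its Benjamini-Hochberg adjusted p was under 0.05. Cl-BBQ replicate 1 stood apart from its group, with a mean correlation of 0.952 with the other Cl-BBQ arrays, against 0.966 to 0.973 for every other array with its own group, so calls of the members and listed genes that its removal changed are given where they are described. The sorted cells carried their defining markers, with all 10 measured CD4+ T cell marker genes above the floor on all arrays and Cd4 at means of 10.52, 10.58 and 10.58 with vehicle, TCDD and Cl-BBQ. The summed level of these markers was 14.24 to 14.49 on vehicle arrays, 14.54 to 14.60 on TCDD arrays and 14.54 to 14.64 on Cl-BBQ arrays. Neither treated group overlapped with vehicle, where replicate 3 was lowest and the other arrays lay at 14.44 to 14.49. Cd6, Thy1 and Zap70 were called higher with both ligands. These calls were lost without some single arrays, except Cd6 with TCDD and Thy1 with Cl-BBQ, and Cd6 with Cl-BBQ was among those lost without Cl-BBQ replicate 1 (adjusted p = 0.057). The part of this difference in the results was not tested.

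With TCDD, 2 of the 7 members were called higher and none lower, against 3.21% of all tested genes called higher, 3.5% lower and 6.71% in either direction. With Cl-BBQ, 4 of 7 were called higher and none lower, against 5.31% of all tested genes called higher, 6.03% lower and 11.3% in either direction. Runx3 and Prdm1 were called with both ligands, and Tbx21 and Gata3 with Cl-BBQ. The median log2 difference of the 7 was 0.34 with TCDD and 0.47 with Cl-BBQ, beside 0.00 and -0.01 over all tested genes. All treated arrays lay above all vehicle arrays for 4 members with TCDD (Runx3, Prdm1, Gata3 and Maf) and for 3 with Cl-BBQ (Runx3, Prdm1 and Tbx21), where 6.31% and 6.08% of all tested genes did so, and 13.6% and 12.9% did not overlap in either direction. The 2 comparisons share the vehicle arrays. These counts use the kept probe sets, and on the further probe sets of Gata3 and Maf the TCDD and vehicle arrays overlapped.

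**Figure D1:**
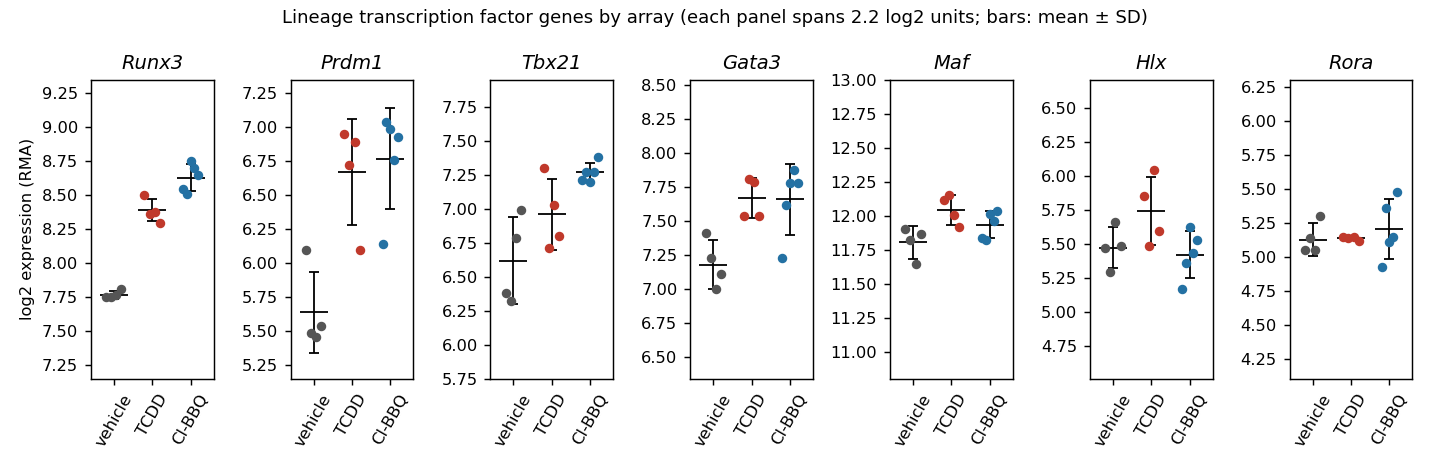
Log2 expression of the 7 genes on each of the 13 arrays, 1 point per array, with the mean and SD of each group as bars. Every panel spans the same number of log2 units, so heights can be compared as differences but not as levels between genes. Runx3 forms 3 groups that do not overlap, while Rora overlaps throughout.

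Runx3 gave the clearest separation. The vehicle arrays read 7.75, 7.75, 7.77 and 7.81 (mean 7.77 ± 0.03, SD, n = 4) and the TCDD arrays 8.50, 8.36, 8.38 and 8.30 (8.39 ± 0.08, n = 4). The Cl-BBQ arrays read 8.55, 8.51, 8.75, 8.70 and 8.65 (8.63 ± 0.10, n = 5). Every treated array was above every vehicle array, and every Cl-BBQ array was above every TCDD array, the last by a gap of 0.013. Of all tested genes, 1.03% had every Cl-BBQ array above every TCDD array and 2.11% had no overlap between them in either direction. The difference from vehicle was 0.62 ± 0.08 (SE) with TCDD, a 1.53-fold rise (limma, adjusted p = 2.7e-04), and 0.86 ± 0.08 with Cl-BBQ, a 1.82-fold rise (adjusted p = 3.5e-06). Both calls held under all 22 alternative settings, 13 of which leave out 1 array. Between the ligands the difference was 0.25 ± 0.08 in favour of Cl-BBQ, with a 95% interval of 0.08 to 0.42, and did not pass over all genes (adjusted p = 0.57, unadjusted p = 0.0076).

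The genes listed with Runx3 did not pass. Cbfb, the shared DNA-binding partner of all Runx proteins, differed from vehicle by -0.26 ± 0.11 (SE) with TCDD and -0.22 ± 0.10 with Cl-BBQ (limma, adjusted p = 0.22 and 0.23). Runx1, the family member already active in naive T cells, differed by 0.21 ± 0.15 and 0.20 ± 0.14. Zbtb7b, which encodes ThPOK, the factor that keeps CD4+ cells from the CD8 lineage and opposes Runx3, differed by 0.20 ± 0.16 and 0.23 ± 0.15. Of this list of 5 tested genes, which also held Cd4 and Cd8a, limma called none in either comparison, and none when any single array was left out, while 2 with TCDD and 1 with Cl-BBQ had an unadjusted p under 0.05. Cd8a, a gene that Runx3 supports in the CD8 lineage and a marker of CD8+ cells in the sort, had a vehicle mean of 4.17, below the floor, and differed by 0.58 ± 0.26 and 0.60 ± 0.25 (adjusted p = 0.25 and 0.15), with every Cl-BBQ array above every vehicle array. The summed level of Cd8a and Cd8b1 was 6.76 to 7.07, 6.65 to 7.22 and 6.79 to 7.52 on vehicle, TCDD and Cl-BBQ arrays, which overlap.

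Tbx21 was called with Cl-BBQ. The vehicle arrays read 6.38, 6.32, 6.79 and 6.99 (6.62 ± 0.32, SD, n = 4), the TCDD arrays 7.30, 6.71, 7.03 and 6.80 (6.96 ± 0.26, n = 4) and the Cl-BBQ arrays 7.21, 7.27, 7.20, 7.27 and 7.38 (7.27 ± 0.07, n = 5). The vehicle arrays were spread widely, and all Cl-BBQ arrays lay above them within a narrow band, while 2 of the 4 TCDD arrays lay inside the vehicle range. Tbx21 rose by 0.64 ± 0.15 (SE) with Cl-BBQ, or 1.56-fold (limma, adjusted p = 0.0088), a call that held under all 22 alternatives with an adjusted p of up to 0.041. With TCDD the difference was 0.34 ± 0.15 (adjusted p = 0.26), and no alternative called it. The ligands themselves differed by 0.30 ± 0.15, with an interval of -0.01 to 0.62 (adjusted p = 0.79), so a different response of Tbx21 to the regimens was not shown.

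Hlx did not pass in any comparison. Its arrays read 5.47, 5.29, 5.66 and 5.48 with vehicle (5.47 ± 0.15, SD, n = 4), 5.85, 5.48, 6.04 and 5.59 with TCDD (5.74 ± 0.25, n = 4) and 5.17, 5.36, 5.62, 5.43 and 5.53 with Cl-BBQ (5.42 ± 0.17, n = 5). The groups overlap, with the TCDD arrays reaching highest. The difference was 0.27 ± 0.13 (SE) with TCDD and -0.05 ± 0.13 with Cl-BBQ (limma, adjusted p = 0.32 and 0.87), the latter of either sign among the alternatives. Cl-BBQ minus TCDD was -0.32 ± 0.13, with an interval of -0.59 to -0.05 that excludes 0 before adjustment and an adjusted p of 0.71 after it.

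Among 20 tested genes linked to T-bet and Runx3, 13 were called higher with TCDD and 14 with Cl-BBQ, beside 3.21% and 5.31% of all tested genes. None of the list was called lower, and its medians were 1.03 and 1.22. Il12rb2, a chain of the receptor for interleukin 12, and the cytotoxic genes Gzmb, Gzma and Nkg7 had the smallest adjusted p, and differed by 4.47, 3.67, 3.45 and 1.96 with TCDD and by 4.81, 4.16, 4.66 and 2.21 with Cl-BBQ. Il12rb1, the other chain of that receptor, rose by 0.71 ± 0.14 (SE) and 0.99 ± 0.14 (limma, adjusted p = 0.0061 and 1.6e-04). Ifng, the cytokine that T-bet is best known for, differed by 0.36 ± 0.20 and 0.61 ± 0.19 (adjusted p = 0.40 and 0.059). With Cl-BBQ Ifng was called without vehicle replicate 1 (adjusted p = 0.0068) or without Cl-BBQ replicate 3 (adjusted p = 0.036). The chemokine gene Ccl3, at 1.06 ± 0.40 with Cl-BBQ, was called without Cl-BBQ replicate 1 (adjusted p = 0.033). Other calls of the list were lost: with TCDD those of Ccl4 and Xcl1 in 7 of the 13 fits that leave out an array each and that of Ccl5 in 1, and with Cl-BBQ those of Cxcr3 and Xcl1 in 2 each. The number called higher then ran from 10 to 13 with TCDD and from 12 to 15 with Cl-BBQ, and Ifngr2, a chain of the interferon gamma receptor, was called lower with TCDD in 1 fit, without Cl-BBQ replicate 4 (adjusted p = 0.027). Eomes, the T-box factor closest to T-bet, lay below the floor with means of 4.00, 3.39 and 3.61 and was not tested. The T-bet and Runx3 list and the other lists were written with results of these libraries known. Their counts are a description and not independent support for a direction. Of the 5 tested natural killer and innate lymphoid cell markers, Kit was called higher with both ligands and Tyrobp with Cl-BBQ. The Tyrobp call was lost without vehicle replicate 2, 3 or 4 or Cl-BBQ replicate 2 or 4, with adjusted p of up to 0.077. Klrb1c, which encodes the natural killer cell marker NK1.1, differed the other way, by -0.33 ± 0.17 and -0.50 ± 0.16 (adjusted p = 0.36 and 0.070), and was called lower with Cl-BBQ without TCDD replicate 1 (adjusted p = 0.031) or Cl-BBQ replicate 4 (adjusted p = 0.029). Their summed level was 7.33 to 7.42 on vehicle, 7.57 to 7.75 on TCDD and 7.44 to 7.77 on Cl-BBQ arrays, which does not overlap with vehicle, while the defining marker Ncr1 had a vehicle mean of 4.05, below the floor, and differed by 0.33 and 0.19 without passing. Their part in the result was not tested.

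**Figure D2:**
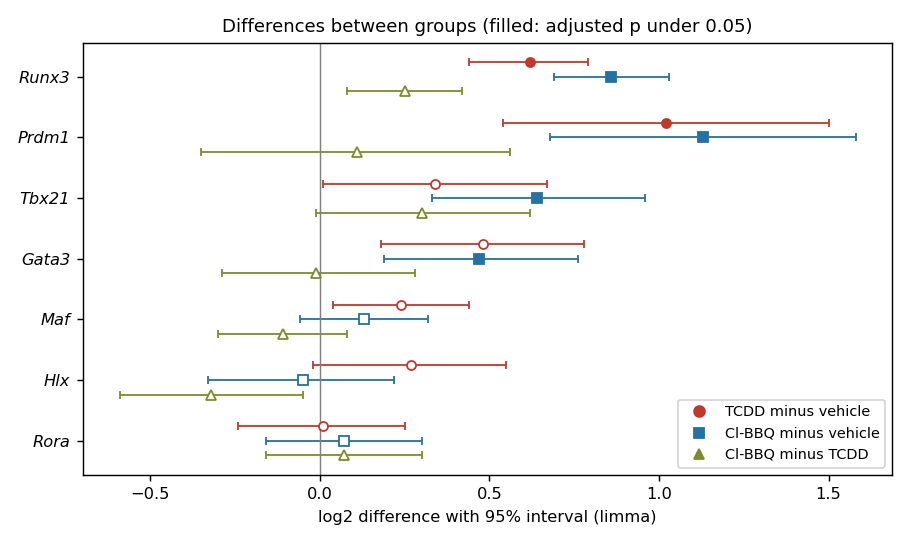
Log2 differences of the 7 genes between groups with 95% intervals from limma, with filled symbols where the adjusted p was under 0.05. Runx3 and Prdm1 are filled for both ligands, Tbx21 and Gata3 for Cl-BBQ, and no gene is filled for Cl-BBQ minus TCDD.

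Gata3 was higher by similar amounts with the ligands but sat at the threshold. The vehicle arrays read 7.41, 7.23, 7.00 and 7.11 (7.18 ± 0.18, SD, n = 4), the TCDD arrays 7.54, 7.81, 7.79 and 7.54 (7.67 ± 0.15, n = 4) and the Cl-BBQ arrays 7.23, 7.62, 7.78, 7.88 and 7.78 (7.66 ± 0.26, n = 5). All TCDD arrays lay above the vehicle arrays, and so did 4 of the 5 Cl-BBQ arrays, with Cl-BBQ replicate 1 inside the vehicle range. The difference was 0.47 ± 0.13 (SE), or 1.39-fold, with Cl-BBQ (limma, adjusted p = 0.033) and 0.48 ± 0.14, or 1.40-fold, with TCDD (adjusted p = 0.058). Cl-BBQ minus TCDD was -0.01 ± 0.13, with an interval of -0.29 to 0.28, so a difference between the ligands of up to about that size in either direction remains possible.

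Neither the Cl-BBQ call nor the missing TCDD call of Gata3 was stable. Without Cl-BBQ replicate 1 both were called, with adjusted p of 0.0027 and 0.014. The Cl-BBQ call was lost without vehicle replicate 2, 3 or 4 (adjusted p = 0.063, 0.11 and 0.086) and without Cl-BBQ replicate 2, 3, 4 or 5 (adjusted p = 0.052, 0.074, 0.080 and 0.074). Without vehicle replicate 1 the TCDD difference was called too (adjusted p = 0.047). A further Gata3 probe set read 6.53, 6.53, 6.24 and 6.25 with vehicle, 7.07, 6.65, 6.67 and 6.45 with TCDD and 6.87, 6.64, 6.82, 6.96 and 6.77 with Cl-BBQ. There every Cl-BBQ array, replicate 1 included, lay above every vehicle array, while TCDD replicate 4, at 6.45, lay inside the vehicle range. The means were 0.42 above vehicle with Cl-BBQ and 0.32 with TCDD. Over the 13 arrays the probe sets correlated at r = 0.63.

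Of 10 tested genes of the Th2 programme, 3 were called higher with each ligand and 1 lower with Cl-BBQ, with medians of 0.28 and 0.02. Over all tested genes, 3.21% were called higher with TCDD and 5.31% with Cl-BBQ, where 6.03% were called lower. The same 3 genes of the list were higher in both comparisons and kept their calls when any single array was left out. Ecm1, an extracellular matrix protein expressed by Th2 cells, rose by 1.42 ± 0.16 (SE) with TCDD and 1.69 ± 0.15 with Cl-BBQ (limma, adjusted p = 4.2e-05 and 2.1e-06). Il4ra, the receptor chain for interleukins 4 and 13, rose by 0.83 ± 0.11 and 1.19 ± 0.11 (adjusted p = 2.3e-04 and 2.3e-06), and the chemokine receptor gene Ccr4 rose 2.82-fold and 3.51-fold (adjusted p = 2.3e-04 and 1.2e-05). The cytokines of the lineage were not called higher. Il4 was at 7.39 ± 0.44 (SD, n = 4) with vehicle, 7.42 ± 0.31 (n = 4) with TCDD and 6.57 ± 0.27 (n = 5) with Cl-BBQ, where it fell by 0.82 on the log2 scale (adjusted p = 0.015), a call lost without vehicle replicate 2 (adjusted p = 0.056). Il13 differed by 0.12 and -0.02 without passing, and Il5 and Il9 lay below the floor in every group mean.

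Rora did not pass in any comparison. Its vehicle arrays read 5.05, 5.14, 5.05 and 5.30 (5.13 ± 0.12, SD, n = 4), its TCDD arrays 5.15, 5.14, 5.15 and 5.12 (5.14 ± 0.01, n = 4) and its Cl-BBQ arrays 4.93, 5.36, 5.11, 5.15 and 5.48 (5.21 ± 0.22, n = 5). The groups overlap and the TCDD arrays agree within a few hundredths of a unit. The difference was 0.01 ± 0.11 (SE) with TCDD and 0.07 ± 0.11 with Cl-BBQ, with intervals of -0.24 to 0.25 and -0.16 to 0.30 (limma, adjusted p = 0.99 and 0.76), and the TCDD value was negative after median centring or quantile normalization. Of 10 Th17 genes, 5 were tested and limma called none with either ligand, with 2 and 0 at an unadjusted p under 0.05. Tmem176b, a membrane protein gene expressed in Th17 cells, was called with TCDD without TCDD replicate 2 (adjusted p = 0.042). Il17f, Il17re, Il22, Il23r and Ccl20 lay below the floor in every group mean, and Il17a had a vehicle mean of 4.36.

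Prdm1 had the largest difference of the 7. The vehicle arrays read 6.10, 5.49, 5.46 and 5.54 (5.64 ± 0.30, SD, n = 4), the TCDD arrays 6.95, 6.72, 6.89 and 6.10 (6.67 ± 0.39, n = 4) and the Cl-BBQ arrays 6.14, 7.04, 6.99, 6.76 and 6.93 (6.77 ± 0.37, n = 5). One array in each group stood off: vehicle replicate 1 was high, and TCDD replicate 4 and Cl-BBQ replicate 1 were low, so that the lowest TCDD array was only 0.005 and the lowest Cl-BBQ array 0.041 above the highest vehicle array. Prdm1 rose by 1.02 ± 0.22 (SE) with TCDD, or 2.03-fold with a 95% interval of 1.46 to 2.83 (limma, adjusted p = 0.011), and by 1.13 ± 0.21 with Cl-BBQ, or 2.19-fold with an interval of 1.60 to 3.00 (adjusted p = 0.0021). Both calls held under all 22 alternatives. The adjusted p reached 0.040 for TCDD without TCDD replicate 1. Without TCDD replicate 4 it was 0.0032, and without Cl-BBQ replicate 1 the Cl-BBQ difference had an adjusted p of 2.9e-04. Cl-BBQ minus TCDD was 0.11 ± 0.21, with an interval of -0.35 to 0.56.

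Prdm1 also marks plasma cells, which a CD4 sort should exclude. The plasma cell genes Sdc1, Jchain and Tnfrsf17 had means below the floor in every group, and the 2 tested markers, Mzb1 and Derl3, were not called. The summed level of the 5 genes was 6.37 to 6.60, 6.42 to 6.76 and 6.38 to 6.72 on vehicle, TCDD and Cl-BBQ arrays, which overlap. B cell markers overlapped as well, at 6.97 to 7.13, 6.95 to 7.20 and 6.95 to 7.37, with none of 4 tested called by limma on all arrays. Cd79b, a chain of the B cell receptor, differed by 0.64 ± 0.26 with Cl-BBQ (adjusted p = 0.16) and was called without Cl-BBQ replicate 1 (adjusted p = 0.050). The part of plasma and B cells in the Prdm1 values was not tested.

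Of 13 tested genes listed here as repressed by Blimp-1, 3 were called lower with TCDD and 5 with Cl-BBQ, and none higher. The list medians were -0.16 and -0.28, and 3.5% and 6.03% of all tested genes were called lower. Whether Blimp-1 represses each of these genes in the sorted cells was not tested. The list was written with results of these data known, so its counts are a description. Ezh2, which encodes a histone methyltransferase and is also tied to cell division, fell by 0.84 and 1.00 on the log2 scale (limma, adjusted p = 2.5e-05 and 1.1e-06), and Pou2af1, a transcriptional coactivator, fell by 1.17 and 1.37. Cxcr4, a chemokine receptor gene, fell by 0.79 and 0.80, a call lost with TCDD without vehicle replicate 1 (adjusted p = 0.052). Bcl6, the follicular helper factor that is repressed by Blimp-1 and represses Prdm1 in turn, went from 8.57 ± 0.23 (SD, n = 4) to 7.84 ± 0.11 (n = 5) with Cl-BBQ, where it fell by 0.73 (adjusted p = 3.2e-04). With TCDD Bcl6 was at 8.18 ± 0.10 (n = 4), a difference of -0.38 ± 0.11 that did not pass (adjusted p = 0.064). Bcl6 was called with TCDD without vehicle replicate 3 (adjusted p = 0.020) and under 4 of the 9 alternatives that do not leave out a single array. Myb, a factor of early T cell stages, fell by 0.91 with Cl-BBQ (adjusted p = 4.5e-04). With TCDD Myb did not pass (adjusted p = 0.11) but was called lower without Cl-BBQ replicate 4 (adjusted p = 0.049). Its difference between the ligands was not called (adjusted p = 0.53). Without vehicle replicate 3 the number called lower with TCDD rose from 3 to 5, by Bcl6 and Ccr7, and with Cl-BBQ the list then also held Ccr7 among the lower (adjusted p = 0.042) and Il2 among the higher genes (adjusted p = 0.016). Other genes of the list did not pass, among them Bach2 (0.15 and 0.17), Cxcr5 (-0.16 and -0.28) and Id3 (0.01 and -0.33), the last of which passed with Cl-BBQ without Cl-BBQ replicate 4 (adjusted p = 0.029). Il2, the T cell growth factor gene, differed by 0.20 ± 0.35 and 0.83 ± 0.34 (adjusted p = 0.84 and 0.15).

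Maf was bright in all groups and shifted little. The vehicle arrays read 11.91, 11.83, 11.65 and 11.87 (11.81 ± 0.12, SD, n = 4), the TCDD arrays 12.12, 12.16, 12.01 and 11.92 (12.05 ± 0.11, n = 4) and the Cl-BBQ arrays 11.84, 11.83, 12.02, 11.97 and 12.04 (11.94 ± 0.10, n = 5). The TCDD arrays cleared the vehicle arrays by 0.013 and the Cl-BBQ arrays overlapped them. The difference was 0.24 ± 0.09 (SE) with TCDD and 0.13 ± 0.09 with Cl-BBQ (limma, adjusted p = 0.18 and 0.45), and the TCDD value was called only with a trended and robust variance model (adjusted p = 0.038). A further Maf probe set gave differences of 0.05 and -0.08 in the group means, so the small shift was not shared between probe sets. On that probe set the TCDD arrays, at 8.73 to 8.96, overlapped the vehicle arrays, at 8.64 to 8.92. Maf is also expressed by macrophages. Of the myeloid markers, Cd68, a lysosomal protein that other cells make too, was called higher with both ligands, calls lost without some single arrays (adjusted p of up to 0.081 and 0.13, both without vehicle replicate 3), while Lyz2, Cd14, Adgre1 and Itgam lay below the floor in every group mean. The summed level of the 9 measured markers was 7.70 to 7.98 on vehicle, 7.92 to 8.51 on TCDD and 8.06 to 8.23 on Cl-BBQ arrays, so that only the Cl-BBQ arrays cleared the vehicle arrays, and 4 of the 9 were below the floor on all arrays. Its part in the Maf values was not tested.

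Of 10 tested genes listed here as activated by c-Maf, 5 were called higher with each ligand, with medians of 0.36 and 0.29. With Cl-BBQ 1 was lower, namely Il4. Whether c-Maf activates each of these genes in the sorted cells was not tested. The shares of all tested genes called higher were 3.21% with TCDD and 5.31% with Cl-BBQ, where 6.03% were called lower. Il10, the suppressive cytokine, went from 5.91 ± 0.23 (SD, n = 4) to 7.63 ± 0.16 (n = 4) and 7.70 ± 0.25 (n = 5). Ctla4 rose by 0.71 ± 0.10 (SE) and 0.81 ± 0.09, Lag3 by 0.62 ± 0.08 and 0.59 ± 0.08, and Havcr2, encoding the inhibitory receptor TIM-3, by 1.36 ± 0.29 and 1.56 ± 0.27 (limma, largest adjusted p of the 6 values 0.0087). The fifth call was Il21 with TCDD and Icos with Cl-BBQ. The Il21 call failed in 7 of the 13 fits that leave out an array (adjusted p of up to 0.11) and the Icos call in 11 (up to 0.10). Without TCDD replicate 3 the inhibitory receptor gene Pdcd1 was lower with Cl-BBQ as well (adjusted p = 0.041). Tigit, another inhibitory receptor gene, differed over all arrays by 0.33 ± 0.10 and 0.29 ± 0.09 (adjusted p = 0.060 and 0.058). Without Cl-BBQ replicate 1 it was called higher with TCDD and Cl-BBQ (adjusted p = 0.043 and 0.028). With Cl-BBQ it was also called without vehicle replicate 2 (adjusted p = 0.046). Of the 9 alternatives that do not leave out a single array, 4 called it with each ligand.

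**Figure D3:**
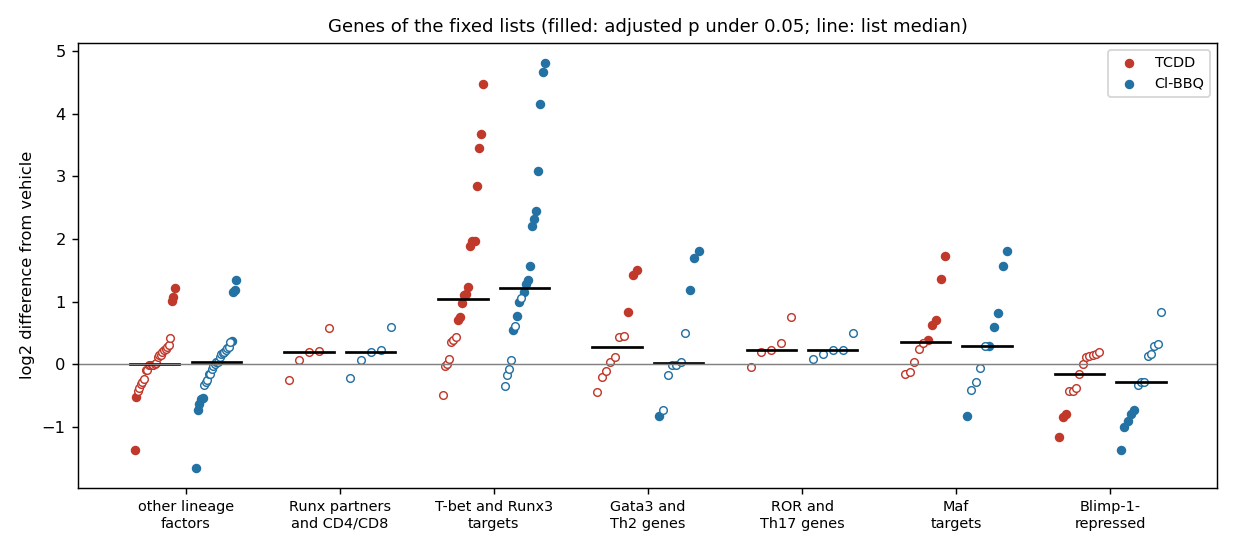
Log2 difference from vehicle of every tested gene in the 7 lists around the lineage factors, 1 point per gene and ligand, filled where the adjusted p was under 0.05, with the list median as a line. The list around T-bet and Runx3 reaches highest, and the Th17 list has no filled point. The list of genes taken as repressed by Blimp-1 has called genes on the lower side only.

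Beyond the 7 members, 27 other transcription factor genes of helper cell fate were tested. With TCDD 3 were higher and 2 lower, and with Cl-BBQ 4 were higher and 5 lower, with medians of 0.01 and 0.03. Over all tested genes, 6.71% were called in either direction with TCDD and 11.3% with Cl-BBQ. Bhlhe40, a helix-loop-helix factor of cytokine-producing T cells, rose by 1.22 ± 0.17 (SE) and 1.35 ± 0.16 (limma, adjusted p = 3.2e-04 and 4.2e-05). Id2, an inhibitor of E proteins that favours effector over follicular fate, rose by 1.08 ± 0.14 and 1.18 ± 0.13 (adjusted p = 2.0e-04 and 2.7e-05). Ikzf3, encoding Aiolos, rose by 1.01 ± 0.10 and 1.15 ± 0.10, and Zbtb32, a zinc finger repressor that binds GATA3, fell by 1.37 and 1.65 on the log2 scale (adjusted p = 9.9e-04 and 6.3e-05). These 4 genes kept their calls when any single array was left out. Stat4, which carries the interleukin 12 signal, rose by 0.37 ± 0.09 with Cl-BBQ (adjusted p = 0.010) and differed by 0.31 ± 0.09 with TCDD (adjusted p = 0.065), where it passed without Cl-BBQ replicate 5 (adjusted p = 0.046). Batf, a factor of helper cell activation, differed by 0.36 ± 0.11 with Cl-BBQ (adjusted p = 0.055) and was called without Cl-BBQ replicate 1 (adjusted p = 0.043) or vehicle replicate 1 (adjusted p = 0.042). The other fall with TCDD was Irf4, a factor of early activation, whose call failed in 8 of the 13 fits that leave out an array. Without vehicle replicate 3 Bcl6 and Ikzf2 were called lower with TCDD in its place. The falls with Cl-BBQ were Zbtb32, Irf4, Bcl6, Tox, a factor of exhausted and follicular helper cells (-0.64 ± 0.10), and Ikzf2, encoding Helios (-0.56 ± 0.14), whose call was lost without vehicle replicate 1, 2 or 4 (adjusted p = 0.058, 0.057 and 0.054). Stat3, Stat6, Lef1, Klf2 and Nfatc1 lay within 0.16 of vehicle with both ligands.

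None of the 7 members was called between Cl-BBQ and TCDD, where 0.0236% of all tested genes, or 3, were called by limma. Runx3 and Hlx had an unadjusted p under 0.05, the former higher and the latter lower with Cl-BBQ. Of the genes listed around the members, Gzma was called, at 1.21 higher with Cl-BBQ (adjusted p = 0.039), a call that failed in 8 of the 13 fits that leave out an array, with adjusted p of up to 0.15. The intervals of the 7 differences ran from -0.59 to 0.62, so differences of that size are not excluded for the members whose intervals reach so far. With 1 dose and schedule per compound, a difference between compounds cannot be told apart from one between regimens.

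The members varied together only in part. Over the 13 arrays, which carry the treatment groups, Gata3 correlated with Prdm1 at r = 0.89, Runx3 with Prdm1 at 0.86 and Runx3 with Tbx21 at 0.81, while Rora with Hlx was at 0.06. After the group means were taken out, Gata3 with Prdm1 was at 0.70 and Gata3 with Maf at 0.64, and Tbx21 with Gata3 at -0.30. The arrays share treatment, normalization and the array that stood apart, and these values are descriptions over 13 points. Cl-BBQ replicate 1 had the lowest Cl-BBQ value for 4 of the 7 members and TCDD replicate 4 the lowest TCDD value for 5.

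The tested genes most alike in pattern over the 13 arrays were found for the 4 called members. For Runx3 they were 4930453N24Rik (r = 0.983), Gzma (0.978) and Anxa6 (0.978), a calcium-dependent membrane-binding protein gene whose means were 10.01, 10.49 and 10.64 with vehicle, TCDD and Cl-BBQ. For Prdm1 they were 1500009L16Rik (0.948), Thy1 (0.948) and Zap70 (0.942), the latter a kinase of the antigen receptor. For Gata3 they were 4933434E20Rik (0.953), the lipid-sensing receptor gene Gpr132 (0.920) and Myadm (0.915). For Tbx21 they were Olfr322 (0.902), with a vehicle mean of 4.05 below the floor, the semaphorin gene Sema4d (0.877) and 2210016L21Rik (0.875). These correlations run over arrays of 3 treatment groups and say nothing of shared control.

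**Figure D4:**
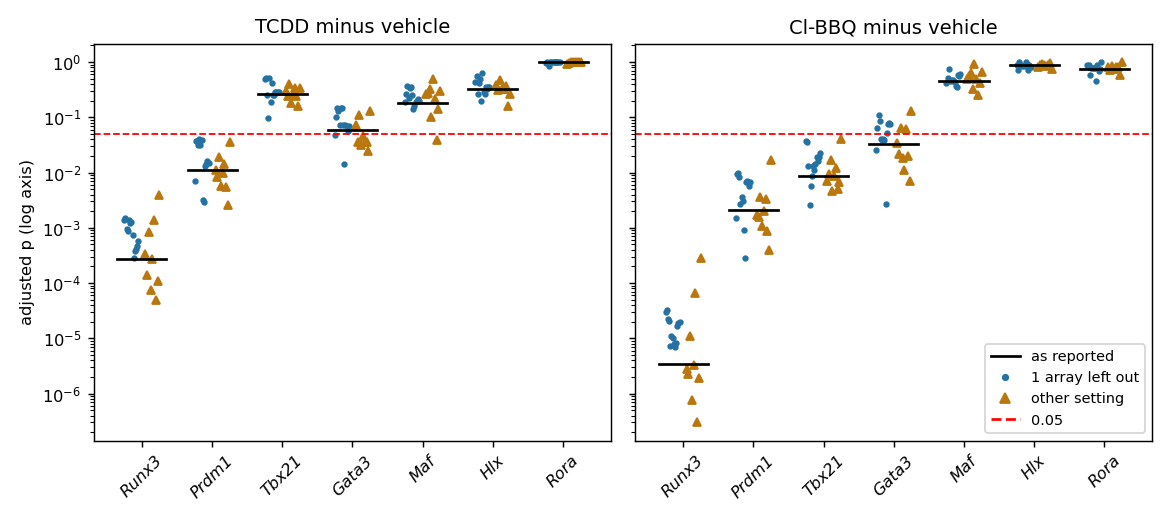
Adjusted p of the 7 genes against vehicle on a log axis, as reported (black line), with 1 array left out (points) and under the other settings (triangles), with the threshold of 0.05 dashed. Runx3 and Prdm1 stay under the threshold in both panels and Tbx21 in the Cl-BBQ panel, and Gata3 lies on both sides of it in both panels.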

How the data were processed

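Gene expression was measured on 13 single-colour arrays with biotin-labelled targets. The authors deposited log2 expression for 41345 probe sets per array, made with RMA per the submitters' processing notes. Its version was not given in the sources used here. RMA makes the distributions of the arrays alike, so these values do not show a change common to most genes. Array medians lay between 4.27 and 4.33, and array correlations between 0.943 and 0.976. The number of arrays limits the precision.

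Groups and replicate numbers came from the labels, where the arrays of a group are biological replicates. Of 25335 annotated probe sets, 23521 named 1 symbol, updated by gene identifier to the GRCm38.p6 gene table. Genes above 4.31 on at least 4 arrays were tested in 1 model with 3 group means in limma 3.58.1 under R 4.3.3, with 10 residual and 4.22 prior degrees of freedom, and 3 two-sided contrasts, with Benjamini-Hochberg adjustment within each contrast over all 12710 genes. SE is limma's moderated standard error. The fit was tested on simulated data. The members, the lists and the tests were chosen with earlier results of these data known. Named were all members, up to 4 genes per list with the smallest adjusted p, others needed to describe a list, chosen after their values were seen, and the 3 genes most alike to each called member. A gene may stand in more than 1 list. Summed marker levels are log2 of the sum of linear values. Some genes of the pathway and marker lists are not reported here. Dendritic cell, neutrophil and erythroid marker lists had 1, 2 and 0 tested genes, none of them called. Alternatives changed scaling, the filter, the probe set, the samples in the fit, the variance model, array weights, a replicate block and single arrays. Same-numbered arrays did not deviate together, with correlations between -0.06 and 0.08 over 12 pairs.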

Additional observations from a re-analysis of the deposited data

Results flagged for a closer look

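Arrays far from the rest of their group were looked for among 46 named genes in 138 groups of arrays, where chance flags about 5% of groups, and 10 were found. The one member among them was Prdm1, where vehicle replicate 1 read 6.10 and the next vehicle array 5.54. Without that array Prdm1 was called with both ligands as well. Among the list genes, Il10 was at 5.57 on vehicle replicate 2, with the next array at 5.97. Il1r1, a receptor gene of the Th17 list, was at 4.72 on vehicle replicate 4, with the next array at 6.04. Zbtb32 was at 7.09 on vehicle replicate 3, with the next array at 7.76. Among the genes alike in pattern, Myadm was at 4.67 on Cl-BBQ replicate 1 and at 5.13 on TCDD replicate 4, 4933434E20Rik at 7.95 on Cl-BBQ replicate 1, and 2210016L21Rik at 7.28 on TCDD replicate 4, each the lowest of its group. Anxa6 was at 10.85 on Cl-BBQ replicate 3 and Gpr132 at 7.71 on TCDD replicate 3, each the highest of its group.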

How the results depend on the processing

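Across 22 alternatives, Runx3 and Prdm1 with both ligands and Tbx21 with Cl-BBQ kept direction and call. Gata3 with TCDD was called under 8 of 22 alternatives, with adjusted p from 0.014 to 0.15, and Gata3 with Cl-BBQ under 12 of 22, from 0.0027 to 0.13. With a trended and robust variance model 4 members were called with TCDD, by Gata3 and Maf in addition. With 1 array left out, 2 to 3 members were called with TCDD, 3 to 4 with Cl-BBQ and 0 between the ligands. The replicate block, which the data did not show to be a pairing, gave 714 genes with TCDD, 1114 with Cl-BBQ and 0 between ligands, and lost the Gata3 call (adjusted p = 0.13). Between the ligands 3 genes were called, 0 without a filter or with only those groups in the fit, 4 after median centring, 5 with the mean of probe sets, 6 after quantile normalization or with the trended model, 7 with the stricter floor or array weights, and 0 to 5 with 1 array left out. The genes called with 1 array left out were 644 to 955 with TCDD and 1185 to 1433 with Cl-BBQ. Signs that turned were all of uncalled differences. Rora with TCDD was -0.03 after median centring, -0.02 after quantile normalization and -0.01 with array weights, and -0.02 to 0.06 with 1 array left out. Hlx with Cl-BBQ was 0.03 with array weights and -0.11 to 0.01 with 1 array left out. Between ligands, Gata3 was 0.01 after median centring, 0.05 with the mean of probe sets and 0.06 with array weights, and -0.06 to 0.10 with 1 array left out. There Rora was 0.00 with the replicate block and 0.00 to 0.14, and Prdm1 -0.08 to 0.27, with 1 array left out. The causes were not tested. Hlx and Rora had no value under the stricter floor of 6.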
